A study of Homo sapiens with 9 samples.

Results

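The baseline transcriptome described here is that of ACHN cells of the control condition, read from the 3 libraries labelled sgControl out of 9 libraries in the series. ACHN is an established human line from a metastatic renal carcinoma, grown from a pleural effusion. The other 6 libraries, labelled KO#1 and KO#2, come from the same line in a study whose title names ELOVL5, a fatty acid elongase, and they were not used for any value below. All 3 libraries share the line, the cell type label (renal cell carcinoma) and the condition sgControl. The labels name no treatment, no time and no clone, and they do not say whether the 3 libraries came from separate cultures, so the spread given here may be technical. Total RNA was made into strand-marking libraries and read as pairs of 36 bases.

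Renal carcinomas arise from the epithelium of the nephron, the tube that filters and recovers salt, water and solutes. Its segments are told apart by transporters: the proximal tubule takes back phosphate, glucose and filtered protein through a brush border, the loop of Henle and distal tubule handle salt and divalent ions, and the collecting duct sets water and acid balance. PAX8 and PAX2 are lineage factors of the developing kidney that many renal carcinomas keep. Epithelial cells are held together by E-cadherin (CDH1) and filled with keratins, while mesenchymal cells carry vimentin (VIM), N-cadherin (CDH2) and a fibrillar matrix. Carcinoma lines in culture often show genes of both programmes.

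The table held 57773 features for each library, and each library's values had been set by the authors to one common set of sorted values, so a value is a quantile-normalised read count and says nothing of the library's own depth. A feature was called detected when its mean over the 3 libraries was at least 10, which corresponds to about 10 reads per library. Features read back as exactly 10 reads had values of 12 to 12.9 in library 1 and 7.89 to 8.67 in library 2. Those read back as 10 reads in library 3 had 12.2 to 13.0. The read-back rests on an assumed ranking of equal reads, given with the processing. By this rule 12740 features were detected (22.1% of all), and 38180 were listed at 0 in all 3 libraries (66.1%). Among the 19053 features matched by name to a protein-coding gene, 11777 were detected (61.8%) and 4402 were listed at 0 (23.1%). A value is not divided by gene length. Levels of different genes are therefore compared as value per kilobase (kb) of transcript, for which the median of detected protein-coding genes was 92.2. Values are given as mean ± SD over the 3 libraries, in the order of libraries 1, 2 and 3 where all are listed.

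By value, mitochondrially encoded messenger RNAs, actin, translation factors and glycolytic enzymes stood among the 30 highest features of ACHN cells. Ranks by value are not divided by transcript length, so long transcripts stand higher in them than per kb. The 30 highest features held 12.4% ± 0.0728 of all signal and the 1000 highest held 53.0% ± 0.180 (SD, n = 3). Every library holds the same sorted values, so the normalisation nearly fixes these shares. Their SDs do not measure spread between libraries. Per kb, the 30 highest held 22.5% of the summed level. MT-CO1, a mitochondrially encoded subunit of cytochrome oxidase, ranked first with values of 76928, 89242 and 89242. AHNAK, a giant scaffold protein of the plasma membrane, ranked second with 89242, 76928 and 76928, but its long transcript brought it to 4313 ± 378 per kb against 55212 ± 4610.5 per kb for MT-CO1. The 13 mitochondrially encoded messenger RNAs together held 6.16%, 5.90% and 5.49% of the signal in libraries 1, 2 and 3, and all 13 were detected. Per kb, mitochondrial features held 14.03% of the summed level.

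**Figure D1:**
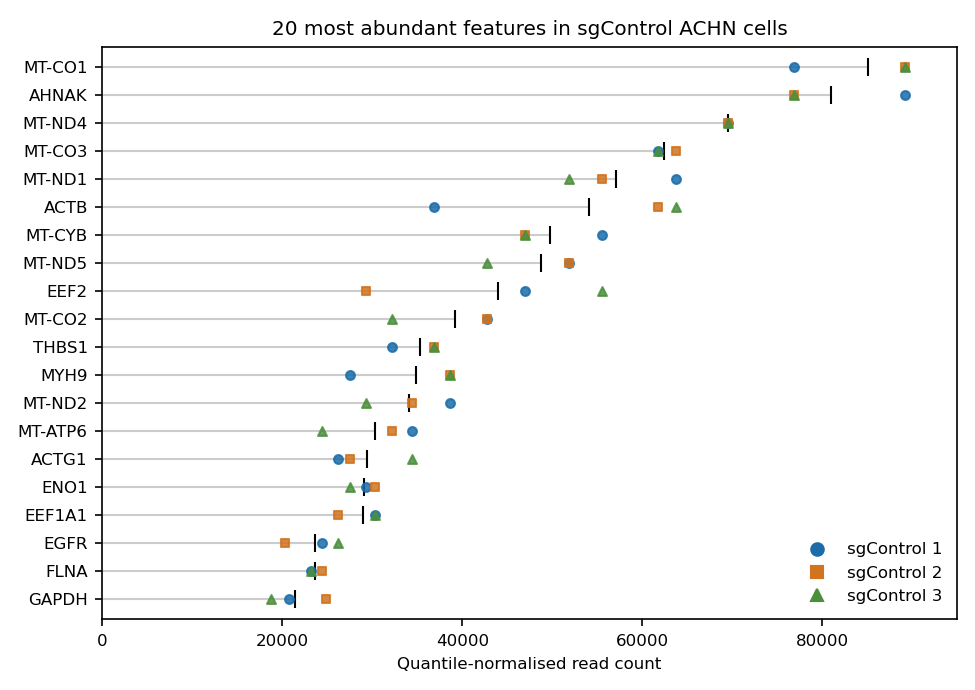
The 20 features with the highest mean in sgControl ACHN cells, highest at the top, with the quantile-normalised read count on the linear axis, a symbol for each library and a tick at the mean. MT-CO1 leads with a mean of 85138, ACTB and EEF2 have the widest spread between libraries, and THBS1 is the eleventh.

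ACTB, cytoplasmic beta-actin, had values of 36866, 61721 and 63809 and the highest level per kb of any nuclear messenger RNA (28179 ± 7803). Library 1 was the low one for ACTB, by more than the distance between libraries 2 and 3. THBS1, the secreted matrix glycoprotein thrombospondin 1, ranked 11 with values of 32238, 36866 and 36866, 4543 ± 344 per kb, where it ranked 99. EGFR, the receptor of epidermal growth factor, ranked 18 with values of 24413, 20308 and 26237, and 181 per kb. The non-muscle myosin MYH9, filamin A (FLNA), plectin (PLEC), the caveolar coat protein CAV1, the atypical cadherin FAT1 and the ferlin MYOF were also among the 30 by value. Per kb they ranked lower, MYH9 94, FLNA 157, PLEC 452, CAV1 50, FAT1 339 and MYOF 194. The glycolytic enzymes ENO1 and GAPDH were among the 30 by value too.

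Translation genes were high as a group. All 77 cytosolic ribosomal protein genes found by name were detected, against 61.8% of protein-coding genes, and together they held 4.85%, 3.76% and 4.98% of the signal in libraries 1, 2 and 3. EEF2, the elongation factor that moves the ribosome along, had values of 46927, 29347 and 55499. EEF1A1, which delivers aminoacyl-tRNA, had values of 30282, 26237 and 30282. Library 2 was the lowest for both. RPS2, of the small ribosomal subunit, reached 15336 ± 2291 per kb, and RPL13A, of the large subunit, 15297 ± 3372 per kb. Many of these genes have near-identical processed pseudogenes that could share their short reads, so single levels are uncertain.

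Messenger RNAs of the translation machinery are known in mammals to begin with a run of pyrimidines that lets growth signals set their translation. Abundant members with such a start are shown here, and where a gene has several listed starts, the first that has the run was taken. Each window below runs from 5 bases before to 20 bases after a RefSeq transcription start (GRCh38.p14), 5′ to 3′ on the gene's strand, with the pyrimidine run that opens with C at the start in capitals.
RPLP0 (chr12:120201092-120201116, minus strand): gaggcCCTTCTCTCgccaggcgtcc
RPS18 (chr6:33272070-33272094, plus strand): ccgctCTCTCTTCCacaggaggcct
RPL13A (chr19:49487603-49487627, plus strand): tcctcCTTTTCCaagcggctgccga
RPL12 (chr9:127451387-127451411, minus strand): tccggCCTCTCggctttcggctcgg
EEF1A1 (chr6:73521013-73521037, minus strand): acgttCTTTTTCgcaacgggtttgc
EEF2 (chr19:3985444-3985468, minus strand): gcgttCTCTTCCgccgtcgtcgccg
TPT1 (chr13:45341164-45341188, minus strand): tcggcCTTTTCCgcccgctcccccc
ENO1 (chr1:8878667-8878691, minus strand): cggacagtatctgtgggtacccgga
THBS1 (chr15:39581074-39581098, plus strand): ttgccagccgctgcgcccgagctgg
ENO1 and THBS1 are shown as abundant genes of other functions, and neither window has such a run at the start.

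A start of this kind, a C followed by at least 4 bases that are each C or T on the gene's strand, stood at 1 or more RefSeq starts of 46 of 62 ribosomal protein genes with a promoter in the table (74.2%). It stood at a start of 6 of 16 translation factor genes (37.5%) and of 937 of all 14673 protein-coding genes with a promoter (6.39%). Among detected genes that do not encode ribosomal proteins the share was 7.21%. TPT1, the translationally controlled tumour protein, had values of 7458, 7256 and 9073. A match to these letters is a description of the annotated start and no measurement of translation.

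A pair of abundant features were short or lay at a locus with a microRNA. ANKRD30BL, listed as a protein-coding gene with ankyrin repeats, ranked 22 with values of 24818, 17785 and 20308. In GENCODE the gene of another microRNA, MIR663B, lies inside it on the same strand. MIR663A, a microRNA hairpin of only 93 bases, had values of 11018, 4333 and 6376 and the second highest level per kb of all features (77872 ± 36834). Only 5 of 1364 features matched as microRNAs were detected. The mature product of MIR663A (chr20:26208243-26208264, minus strand, GRCh38.p14) is shown because the hairpin stands so far above the other microRNA features, with its seed, bases 2 to 8, in capitals.
hsa-miR-663a: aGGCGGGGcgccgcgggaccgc
No coordinates of the counted hairpin are given, so it is not shown that it holds all 22 bases of this product. Libraries from total RNA read as 36-base pairs also do not show where a read came from. The source could be the hairpin, its host transcript or a similar sequence elsewhere.

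PAX8 and PAX2, lineage factors of the kidney, were present in all 3 libraries of these cells labelled renal cell carcinoma. Of the nephron lineage transcription factors 19 of 30 were detected (63.3%, close to the 61.8% of all protein-coding genes), and 4 were listed at 0. PAX8 had values of 3669.7, 2813 and 2991 and ranked 418 of 57773. PAX2 had values of 938, 773 and 855. Library 2 was the lowest for both genes, and no library was near the detection level. In bulk RNA, fewer cells with a transcript and less of it per cell cannot be told apart. Per kb, CITED2, a transcriptional co-activator, stood highest of the list at 1123 ± 417, with PAX8 at 773 ± 111, and these levels overlap within their SDs. LHX1, needed for early nephron formation, had 247, 72.8 and 138. TFAP2A, an AP-2 family factor, had 601, 444 and 549.9. WT1, the podocyte and progenitor factor, and EYA1, TFAP2B and EMX2 were listed at 0, and HNF4A, the master factor of the mature proximal tubule, had a mean of 0.148.

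No segment of the mature nephron was represented by most of its list. The proximal tubule lists had 9 of 24 transport genes, 11 of 24 brush border and endocytosis genes and 5 of 20 metabolic genes detected. The loop of Henle had 4 of 15, the distal convoluted and connecting tubule 2 of 10, principal cells of the collecting duct 4 of 15, intercalated cells 1 of 14 and podocytes 4 of 10. Each of these shares was below the 61.8% of all protein-coding genes. Medians per kb were taken over all members of a list, detected or not. They were 0.372 for proximal transport, 1.30 for the brush border and 0.157 for the loop of Henle. The median of 92.2 covers detected protein-coding genes only, so it is no reference for these list medians.

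**Figure D2:**
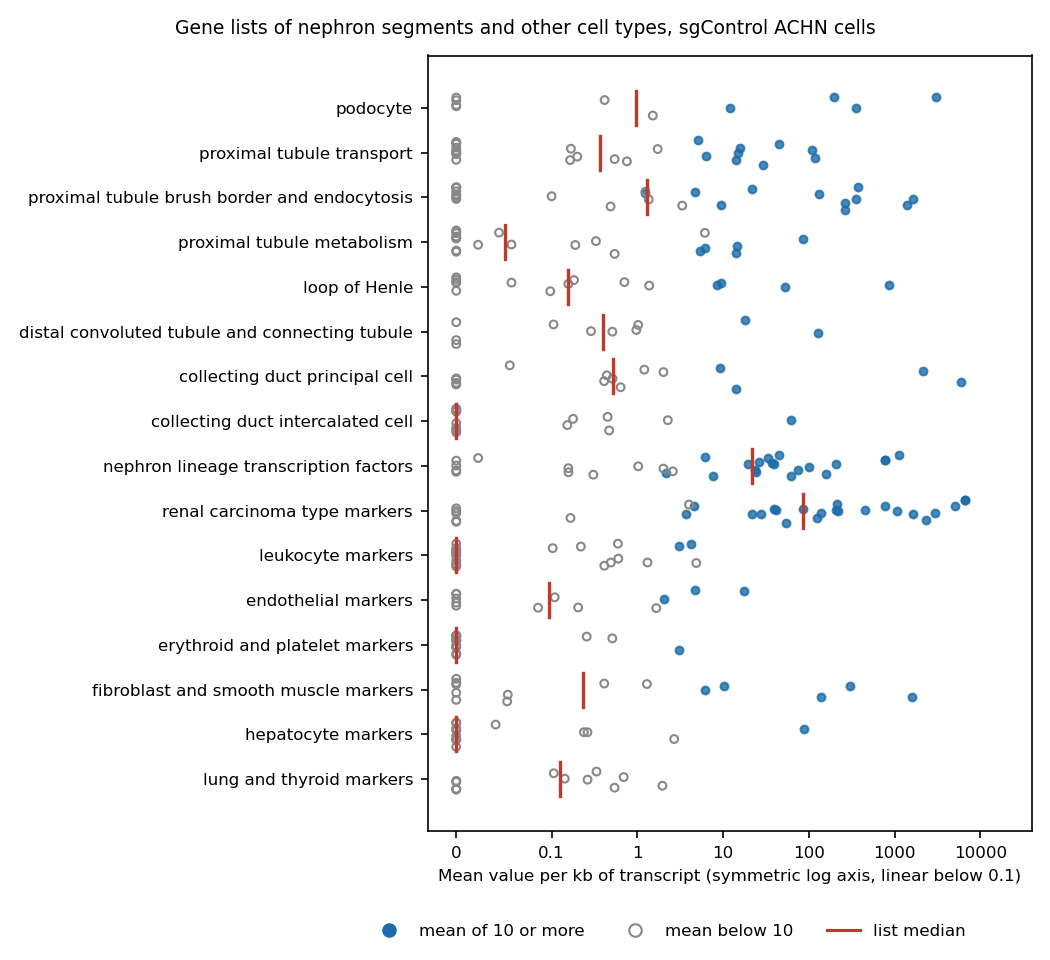
Mean value per kb of transcript on a symmetric log axis for each member of 16 gene lists of nephron segments, renal carcinoma and other cell types in sgControl ACHN cells, filled where the mean value was 10 or more, with the list median in red. Lineage factors and renal carcinoma markers have the highest medians (21.7 and 86.3 per kb).

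The proximal tubule genes detected included a marker of tubule injury, some brush border proteins and a few transporters. HAVCR1, kidney injury molecule 1, had values of 3717, 2608 and 2183 and the highest level of the brush border list at 1656 ± 463 per kb. EZR, which anchors microvilli to actin in many epithelia, had 3434, 5073 and 4397. DPP4, a brush border peptidase, had 1359.8, 1393 and 1431, with little spread. DAB2, an adaptor of endocytosis, averaged 1209 ± 152, and the scaffold PDZK1 averaged 291 ± 147. The basolateral bicarbonate transporter SLC4A4 averaged 887 ± 17.6 and the urate and phosphate carrier SLC17A1 187 ± 35.2. Against this stood the endocytic receptor LRP2 (megalin), the peptidases ANPEP, MME, MEP1A and MEP1B, the organic anion transporters SLC22A6, SLC22A8 and SLC22A12, and the gluconeogenic PCK1 and G6PC, all listed at 0 in the 3 libraries. SLC34A1, the phosphate transporter of the normal proximal tubule, had a mean of 4.44.

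SLC34A2, a phosphate transporter better known from lung and intestine, had values of 15791, 7853 and 12505, or 2923 ± 968 per kb. It ranked 44 by value, 149 per kb and 61 by value without library 1. Library 1 held about 2 times the value of library 2. Its relative SLC34A3 averaged 33.5 ± 10.6. Single genes of other segments were also high. CLDN16, a tight junction protein of the thick ascending limb, had values of 2246, 2878 and 3272, while UMOD, the defining product of that limb, was listed at 0 and SLC12A1, its salt transporter, had a mean of 0.852. NPNT, nephronectin, a matrix ligand of integrins listed here with podocyte genes, had 5746, 4235 and 6594, while NPHS1, the slit diaphragm protein nephrin, had a mean of 1.78. The sodium-calcium exchanger SLC8A1 averaged 373 ± 95.8. AQP2, the water channel of principal cells, and FOXI1, the factor of intercalated cells, were listed at 0, and KRT8 and KRT18, shared by all simple epithelia, were the high members of the collecting duct list.

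Markers that pathologists use to sort renal carcinomas were mixed. Of the list, 22 of 29 were detected (75.9%, against 61.8% of all protein-coding genes) and 5 listed at 0. KRT19 had values of 12505, 6423 and 8774, SPP1 (osteopontin) 11839, 7129 and 9961 and VIM 8641, 10071 and 9308. ALDH1A1, a retinaldehyde dehydrogenase, had 4098, 5058 and 5564. MET, the receptor whose gain is typical of papillary tumours, had 5501, 5555 and 3909.8. All 5 of these genes were above 1000 in each library. KRT7 averaged 218 ± 35.7 and AMACR, a papillary marker, 103 ± 38.7. CA9, the hypoxia-inducible carbonic anhydrase of clear cell carcinoma, EGLN3, MME and KIT were listed at 0. NDUFA4L2, another clear cell marker, averaged 24.4 ± 9.63.

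Tumour suppressors and oncogenes of renal carcinoma were nearly all present as RNA. Of the list, 33 of 34 were detected (97.1%, against 61.8% of all protein-coding genes), the exception being CDKN2A. EPAS1, the HIF-2 alpha subunit, had 6117, 3195 and 9749 and varied 3-fold between libraries 2 and 3. HIF1A averaged 2280.4 ± 205 and VHL, which targets both for breakdown, 490.1 ± 114. The chromatin genes PBRM1, SETD2 and BAP1 had means of 432, 1287 and 893. MYC had 3071, 1483 and 2698 and CDKN1A, a cell cycle inhibitor, averaged 2637 ± 600.0. NFE2L2, the antioxidant factor NRF2, averaged 3572 ± 407, and FH, the fumarase lost in a hereditary form, 452 ± 91.6. RNA levels say nothing of mutations in these genes.

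Epithelial junction genes were largely present. Of the list of junction and polarity genes, 31 of 38 were detected, above the 61.8% of all protein-coding genes. CDH1 had values of 6183, 3831 and 6059, ranked 188 and stood at 1098 ± 271 per kb. CLDN1, a tight junction claudin, had 5153, 7281 and 6987 and was the highest of the list per kb (1859.7 ± 331). TJP1, the junction plate protein ZO-1, had 5477, 5273 and 5633. JUP, plakoglobin, had 2541, 795 and 2135, and library 2 was the low one, with the other two 2-fold higher or more. The catenins CTNNB1 and CTNNA1, which link cadherins to actin, averaged 3059 ± 338 and 3314 ± 251. Of the 7 members not detected, CDH3, EPCAM, MARVELD3 and CLDN2 had means of 8.67, 4.93, 0.481 and 0.148, and CLDN7, DSC2 and the kidney cadherin CDH6 were listed at 0.

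KRT8, a keratin of simple epithelia, had values of 8939.9, 13065 and 7922, KRT18, its partner, 3170.4, 4177 and 2570, and KRT19 stood at 6643 ± 2206 per kb, the highest of the keratin and mucin list. KRT80 averaged 6322 ± 1546. The stratified epithelial keratins KRT5, KRT14, KRT17 and KRT6A and the intestinal KRT20 were listed at 0. In the whole keratin family 9 of 54 genes were detected and 38 had no read, against 61.8% and 24.0% of all protein-coding genes. Of the regulators of the epithelial state 9 of 17 were detected (52.9%, below the 61.8% of all protein-coding genes). ELF3 had 844, 468 and 966 and KLF5 823, 676 and 865. The epithelial splicing factors ESRP1 and ESRP2 had means of 2.59, under the detection level, and 10.8, just over it, and GRHL2 and OVOL2, which keep CDH1 on in many epithelia, were listed at 0.

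Mesenchymal genes were present beside them. Of the list, 32 of 46 were detected (69.6%, against 61.8% of all protein-coding genes) and 11 were listed at 0. CAV1 had 18746, 20758 and 20758, 7429 ± 429.7 per kb, and VIM stood at 4999.8 ± 383 per kb. THBS1 came next at 4543 ± 344 per kb. CYR61 and CTGF, matricellular proteins switched on by YAP, had 7428, 6643 and 8294 (CYR61) and 3127, 1464 and 2648 (CTGF). CDH2 had 1057, 1106 and 685, or 219 ± 53.2 per kb against 1098 ± 271 per kb for CDH1. THY1, a surface glycoprotein of fibroblasts and stem cells, had 893, 1029.7 and 869. FN1, fibronectin, averaged 3371 ± 1096. Of stromal genes, COL1A2, COL6A3, DCN, LUM, POSTN, FAP, PDGFRA and MMP2 were listed at 0 and COL3A1 had a mean of 0.296, while COL1A1, a fibrillar collagen, was detected at 41.3 ± 22.1.

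Transcription factors that drive the mesenchymal state ranged from moderate values to 0. RUNX2 had 538, 230.4 and 303, ZEB1 319, 385 and 382 and ZEB2 505, 511 and 379. TWIST2 averaged 66.4 ± 16.8 and SNAI1 16.6 ± 3.30. SNAI2, TWIST1 and PRRX1 were listed at 0. Per kb the highest factor, RUNX2, stood at 158 ± 71.2, against the median of 92.2 for detected protein-coding genes. In all, 10 of 19 factors were detected (52.6%, below the 61.8% of all protein-coding genes).

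**Figure D3:**
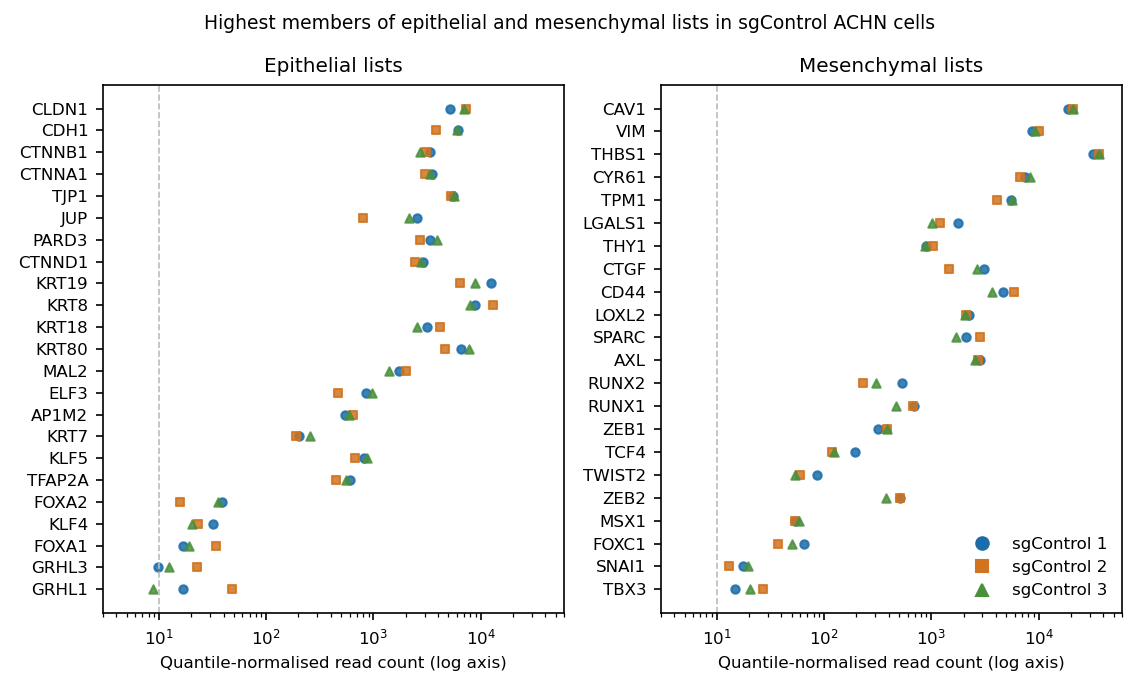
Detected members with the highest level per kb in 3 epithelial lists (left) and 2 mesenchymal lists (right), with the quantile-normalised read count on a log axis, a symbol for each library and the detection level of 10 as a dashed line. CDH1 and VIM both lie above 1000 in every library, and RUNX2, ZEB1 and ZEB2 lie below 1000.

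Genes of the basement membrane were largely detected. Of the list, 24 of 27 were detected (88.9%, against 61.8% of all protein-coding genes). COL4A1 had 13065, 14495 and 15456 and COL4A2, the other chain of the same network, 13293, 13293 and 17272. TINAGL1, a secreted matrix protein, stood highest per kb (3314 ± 639), LAMB1 averaged 7878 ± 1508 and perlecan (HSPG2) 10169.7 ± 2379. Among integrins, the matrix receptors, 17 of 24 were detected (70.8%, against the same 61.8%). ITGA3, a laminin receptor subunit, had 13509.8, 16936 and 9668 and its partner ITGB1 5058, 6304 and 6012. Receptor tyrosine kinases were led by EGFR at 2408 ± 309 per kb, followed by MET at 1077 ± 202 per kb and FGFR2 at 840.4 ± 279 per kb. The endothelial receptors KDR and FLT4 were listed at 0. Of that list 22 of 41 were detected (53.7%, below the 61.8% of all protein-coding genes).

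Of the glycolysis and glucose transport genes 21 of 27 were detected (77.8%, against 61.8% of all protein-coding genes). Among them 2 stood among the 30 most abundant features. GAPDH had 20758, 24818 and 18746, ENO1 29347, 30282 and 27475 and PKM, pyruvate kinase, 14078, 16267 and 12769. LDHA and LDHB, the subunits of lactate dehydrogenase, had 4076, 5240.4 and 4831 (LDHA) and 4590, 5689 and 6704 (LDHB), and per kb LDHB stood at 4345 ± 812 and LDHA at 2046 ± 256. The glucose transporter SLC2A1 averaged 1509 ± 149 and the hexokinases HK1 and HK2 793 ± 166 and 400.3 ± 58.3. Gluconeogenesis, a function of the normal proximal tubule, had PCK1, G6PC and FBP2 listed at 0 and FBP1 at a mean of 0.481. All 24 citric acid cycle genes and all 29 nuclear respiratory chain subunits found in the table were detected, with medians of 249 and 444 per kb. Transketolase (TKT), of the pentose phosphate pathway, had 8592, 3817 and 11966, with library 2 lowest.

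Of the glutamine, proline and aspartate list 21 of 23 were detected (91.3%, against 61.8% of all protein-coding genes). SLC7A5, a carrier of large neutral amino acids, had 5786, 8156 and 9439. PSAT1, of serine synthesis, averaged 3549 ± 868 and PHGDH, the first step, 1259 ± 444. ASS1, of arginine synthesis and often low in renal carcinoma, averaged 1417 ± 488. In the serine, glycine and one-carbon list 19 of 19 were detected.

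Of the cholesterol synthesis genes 24 of 25 were detected (96%, against 61.8% of all protein-coding genes), with a median of 240.1 per kb. Of the 24 detected, 19 were highest in library 2 and 20 lowest in library 3. Of all 12740 detected features, 4595 were highest in library 2 and 3661 lowest in library 3. FDPS, which makes farnesyl diphosphate, had 1435, 2405 and 1063. FASN, fatty acid synthase, had 9594, 9245 and 6935, ACLY, which makes its acetyl-CoA, 8774, 9526 and 7256, and SCD, which adds the first double bond, 8442, 7715 and 5877. ELOVL5, the gene named in the study's title, had 1999, 2713 and 2063 in these control cells and ranked 662. ELOVL1 averaged 633 ± 18.4, and ELOVL3 and ELOVL4 were listed at 0. Fatty acid oxidation had 24 of 28 detected (85.7%) with a median of 91.6 per kb. CPT1A averaged 826 ± 149.8 and the co-activator PPARGC1A was listed at 0. Of the lipid droplet and triglyceride list 15 of 26 were detected (57.7%, near the 61.8% of all protein-coding genes), with a median of 9.95 per kb. PLIN2, the droplet coat abundant in clear cell tumours, averaged 416 ± 73.0, and FABP4 and CIDEA were listed at 0.

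Iron storage and redox genes included some of the highest levels per kb, led by FTL at 14722 ± 4527. FTL and FTH1, the ferritin chains, had 15157, 8337 and 15284 (FTL) and 10071, 5324 and 12329 (FTH1). TXNRD1, thioredoxin reductase, had 6952, 5729 and 15791 and library 3 was more than 2 times either other library. NQO1 averaged 2893 ± 956, AKR1B1, aldose reductase, 7781 ± 1319.7 and GPX4, which reduces lipid peroxides, 2316 ± 258. MT2A and MT1E, the metal-binding metallothioneins, had 3043, 4427 and 1896 (MT2A) and 1956, 2194 and 1669 (MT1E), while MT1A, MT1B, MT1G, MT1H, MT3 and MT4 were listed at 0. Of targets of the hypoxia-inducible factors 23 of 26 were detected (88.5%, against 61.8% of all protein-coding genes). VEGFA had 700.4, 402 and 563, and CA9 and EGLN3 were listed at 0. Ferritin, metallothionein, keratin and actin genes have close copies in the genome, and no source at hand says how reads shared by such copies were counted.

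Levels across genes correlated between the 3 libraries, and library 2 stood apart from libraries 1 and 3. Over the 12740 detected features, Pearson's r of log2(value + 1) was 0.977 between libraries 1 and 3, 0.956 between 1 and 2 and 0.955 between 2 and 3, a correlation across genes, which are not independent replicates. Of 9093 features with a mean of at least 100, the highest library exceeded the lowest by a median of 1.39-fold. Of these features 1030 (11.3%) differed 2-fold or more and 101 differed 4-fold or more. Library 2 was the highest for 526 of those 1030 and the lowest for 457. The most uneven gene was RRM2, a subunit of ribonucleotide reductase made in S phase, with 536, 2619.8 and 245. ESCO2, SGOL2 and CENPI, of chromosome cohesion and the centromere, and the histones HIST1H3A, HIST1H2AH, HIST1H2AL and HIST1H2BI were also among the 10 most uneven, with SMTN and TCP11L2.

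Whole groups of genes moved with that library. All 32 proliferation genes were detected and 30 were highest in library 2, where 36.1% of all detected features were. MKI67, the Ki-67 antigen of cycling cells, had 3651, 15284 and 2558. Of 22 chaperone genes 20 were highest in library 2, with HSP90AA1 at 4542, 14301 and 4115. Of 77 ribosomal protein genes 68 were lowest in library 2, against 40% of all detected features. Of the 13 detected members of the replication-dependent histone list 10 were highest in library 2. All 13 were lowest in library 3, where 3661 of all 12740 detected features were lowest. Cholesterol synthesis genes were also mostly highest in library 2 (19 of 24). By the read-back, features with 10 reads had values of 7.89 to 8.67 in library 2. Features with 10 reads in library 1 had 12 to 12.9 there, and those with 10 reads in library 3 had 12.2 to 13.0. The features with 10 reads were found in each library separately. A given low value thus stood for more reads in library 2. What set library 2 apart was not tested.

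Promoters of genes without reads and of detected genes differed in composition. Over 14673 protein-coding genes with a RefSeq promoter of 300 bases (250 before and 50 after the first listed start), the median number of CpG dinucleotides was 6 for genes with no read in any library, 12 for those below 10, 24 from 10 to 100, 27 from 100 to 1000 and 29 at 1000 or more. The share of promoters with fewer than 10 CpG was 61.9% for genes with no read and 8.43% for the highest class. The letters TATAAA, searched between bases 40 and 16 before any listed start on the gene's strand, stood in 9.13% of promoters of genes with no read, 1.40% of those from 100 to 1000, 2.72% of the highest class and 4.04% of all. Vertebrate promoters rich in CpG are known to serve widely used genes, and TATA promoters genes limited to a tissue.

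**Figure D4:**
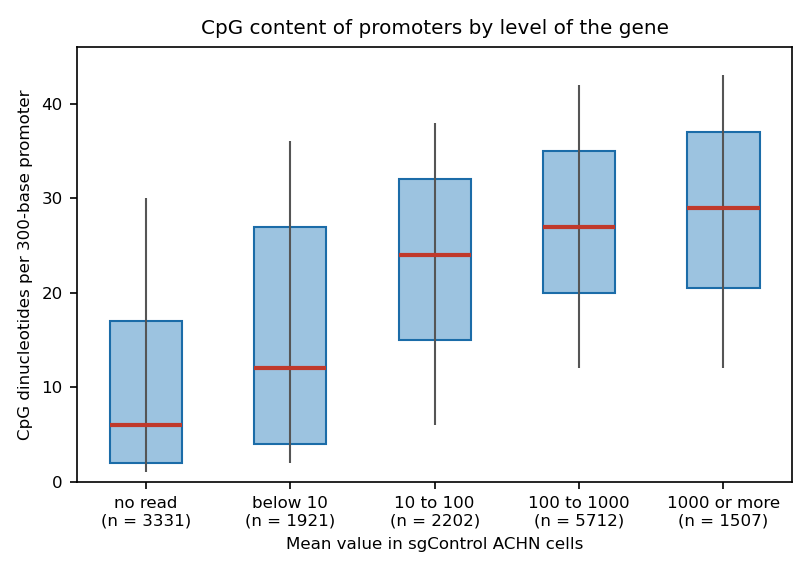
CpG dinucleotides per promoter of 300 bases for protein-coding genes grouped by their mean value in sgControl ACHN cells, with the median in red, the interquartile range as a box and the outer deciles as the ends of the line. The median is 6 in genes with no read and 29 in genes at 1000 or more, and the classes overlap widely.

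Single genes did not have to follow the class medians. The 250 bases before the first listed start (GRCh38.p14, 5′ to 3′ on the gene's strand, CpG in capitals) are shown for SLC34A2 and THBS1, which were detected in all 3 libraries, and for LRP2 and MTAP, which were listed at 0 in all 3 libraries.
SLC34A2 (chr4:25655601-25655850, plus strand): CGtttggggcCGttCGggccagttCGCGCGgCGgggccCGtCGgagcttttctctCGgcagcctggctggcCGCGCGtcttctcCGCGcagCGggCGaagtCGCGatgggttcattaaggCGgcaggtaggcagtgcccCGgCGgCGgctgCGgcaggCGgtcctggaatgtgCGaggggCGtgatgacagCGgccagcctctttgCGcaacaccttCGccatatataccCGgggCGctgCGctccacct
THBS1 (chr15:39580829-39581078, plus strand): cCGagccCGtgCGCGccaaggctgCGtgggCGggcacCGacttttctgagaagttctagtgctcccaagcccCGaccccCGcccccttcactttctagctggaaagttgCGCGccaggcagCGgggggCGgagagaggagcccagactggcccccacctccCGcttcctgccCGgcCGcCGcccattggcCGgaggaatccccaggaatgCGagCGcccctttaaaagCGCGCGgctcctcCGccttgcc
LRP2 (chr2:169362535-169362784, minus strand): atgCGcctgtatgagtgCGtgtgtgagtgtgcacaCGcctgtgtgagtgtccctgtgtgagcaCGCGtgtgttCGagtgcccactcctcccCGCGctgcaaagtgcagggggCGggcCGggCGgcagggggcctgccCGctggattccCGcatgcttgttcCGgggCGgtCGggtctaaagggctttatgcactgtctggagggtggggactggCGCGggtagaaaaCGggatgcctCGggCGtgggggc
MTAP (chr9:21802386-21802635, plus strand): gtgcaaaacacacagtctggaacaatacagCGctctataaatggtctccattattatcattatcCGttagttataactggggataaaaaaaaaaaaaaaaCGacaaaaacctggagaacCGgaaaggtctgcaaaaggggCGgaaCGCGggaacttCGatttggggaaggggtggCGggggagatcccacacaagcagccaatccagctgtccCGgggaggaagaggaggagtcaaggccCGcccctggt
These windows hold 33 CpG for SLC34A2, 24 for THBS1, 21 for LRP2 and 11 for MTAP. LRP2, listed at 0, thus had nearly as many as the abundant THBS1.

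Several gene families had hardly any reads, among them families used in other tissues. Of all protein-coding genes 24.0% had no read in any library and 61.8% were detected. Of 379 olfactory receptor genes 363 had no read in any library and 1 was detected. Of 94 keratin-associated proteins of hair 91 had no read. None of the 36 beta-defensins, 17 type I interferons, 23 genes of the MAGEA, MAGEB and MAGEC subfamilies or 14 kallikreins had any. No feature matched as a small nuclear RNA (1794) or small nucleolar RNA (283) was detected, against 22.1% of all features. At the other end, all 74 mitochondrial ribosomal protein genes, all 12 RNA polymerase II subunits and 30 of 30 housekeeping reference genes were detected. Of 37 proteasome subunits 35 were detected and 2 had no read. An entry of 0 need not mean that a gene was silent: LINC00657, a noncoding RNA found in most human cells, was listed at 0 in all 3 libraries, as was the histone gene HIST1H1B.

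Genes below the detection level also lay side by side. The longest runs of neighbouring protein-coding genes below the detection level, in GENCODE order, were 65 genes from OR4B1 to APLNR on chromosome 11, 51 genes from TCHHL1 to S100A7 on chromosome 1 and 49 genes from KRT12 to KRT13 on chromosome 17, where tissue-restricted families are clustered. A run of 23 genes lay between MLLT3 and CDKN2A on chromosome 9. It holds the type I interferon cluster but also MTAP, which salvages methionine in most cells, and MLLT3, FOCAD and KLHL9. Of the 23 genes 22 were listed at 0 in all 3 libraries, and CDKN2A, which encodes the cell cycle inhibitor p16, had 0.889, 1.44 and 0. On one side the run ended at SLC24A2, with 145, 125 and 108, ACER2, with 54.3, 81.4 and 60.6, and RPS6, with 9245, 9829.9 and 11235. On the other side it ended at CDKN2B, the neighbouring inhibitor p15, with 25.8, 30.8 and 9.89, and DMRTA1, with 29.4, 43.4 and 49.0. RNA values do not tell an absent gene from an untranscribed one.

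**Figure D5:**
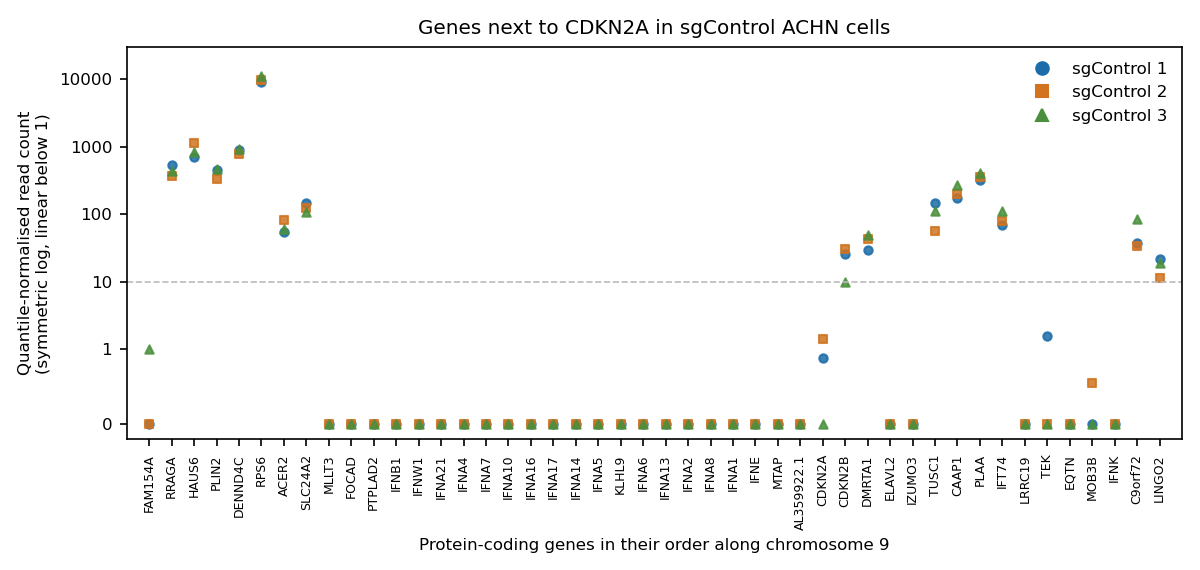
Quantile-normalised read count of protein-coding genes in their order along chromosome 9 on both sides of CDKN2A in sgControl ACHN cells, on a symmetric log axis that is linear below 1, with a symbol for each library and the detection level of 10 as a dashed line. From MLLT3 to AL359922.1 every point lies at 0, while CDKN2B to the right and SLC24A2 to the left lie near or above 10 in every library.

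Markers of other cell types were at or near 0 for most lists. The detected share of each list was below the 61.8% of all protein-coding genes. It was highest for the neuronal list (46.2%) and the fibroblast and smooth muscle list (35.7%). Of 22 leukocyte markers 2 were detected, CD4 at 10.9, 16.4 and 12.2 and ITGAM at 6.33, 30 and 7.56, and PTPRC, CD3E and LYZ were listed at 0. Of 12 endothelial markers 3 were detected, ESAM at 32.3 ± 7.26, ENG at 14.5 ± 2.89 and VWF at 18.3 ± 7.19, with CDH5 and KDR listed at 0. The haemoglobin genes HBB, HBG1, HBG2 and HBA2 were listed at 0, and the only erythroid or platelet marker detected was ITGA2B at 10.1 ± 2.41. In the fibroblast and smooth muscle list THY1, ACTA2, RGS5, PDGFRB and COL1A1 were detected, 5 of 14, with means of 930.4, 411, 128, 58.3 and 41.3. Of 14 hepatocyte markers SERPINA1 alone was detected, at 139 ± 69.4, and ALB and TTR were listed at 0. No lung or thyroid marker of 12 was detected, and SCGB1A1 and NKX2-1 were listed at 0. Of 14 muscle markers TTN alone was detected, at a mean of 12. The neuronal list had 6 of 13 detected, ENO2 at 338 ± 90.4, GAD1 at 162 ± 41.8, SYT1 at 108 ± 23.1, NEFL at 44.6 ± 11.7, MAP2 at 39.9 ± 18.3 and GRIN1 at 17.4 ± 7.66, with STMN2 and GAP43 listed at 0.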

How the data were processed

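The authors deposited 1 table of quantile-normalised total read counts per gene, here called signal, with a column for each of 9 libraries, and the 3 sgControl columns were used. Sorted values are the same in every column, with a sum of 8625044 each, so library depth is unknown. The submitters' processing notes list the mouse build mm10, although gene names are human, so no coordinates of counted features are given. No source at hand names the aligner or the counter, or says if strand was used. The authors' values were neither rescaled nor filtered.

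Names were matched to GENCODE 29 (34099 by symbol, 1244 by older symbol, 22430 unmatched), and value per kb used the transcript with the longest coding sequence, a choice made after AHNAK's principal transcript proved short. The normalisation was taken to rank equal reads by place in the table. On that basis features with 0 to 10 reads were read back. The step made no error in simulated libraries, but these were built with the same rule and so do not test it. Features with at least 1 read numbered 16290, 17066 and 16238 in libraries 1, 2 and 3. In 1141 features above 0 no library had a read. With 1 group there was no test. Members and the 54 gene lists were chosen with earlier results of these data known. Genes named are the 30 highest features, the 4 highest per kb and those at 0 in each list, the 4 markers, the 10 most uneven features with a mean of at least 100 and detected markers of other cell types, and any further gene was chosen after its values were seen. Some listed genes (AQP1, ACE, CD24, SDHD, NDUFB8, ITGB3, PECAM1, TUBB3 and TAP2) are split into numbered entries and were left out. Promoters and the microRNA are from RefSeq (GRCh38.p14), matched by symbol for 14673 of 19053 protein-coding genes. Alternatives were other detection levels, pseudocounts of 0.5 and 10, per kb scaling, other ranking and leaving out each library. Some genes that the rule names are not reported here. Python 3.11.15, numpy 2.4.6, pandas 2.3.3 and matplotlib 3.10.9 were used.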

Additional observations from a re-analysis of the deposited data

How the results depend on the processing

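Detected features numbered 13602 at a mean of at least 5, 11825 at 20 and 12176 with at least 10 in each library, and 12712 to 12760 with 1 library left out. Features at 0 numbered 38180, against 41865 below a mean of 1, 39321 without a read (an alternative chosen after the data were seen) and 38723 to 39226 with 1 library left out. The 30 highest features held 22.5% of the signal per kb and 8.89% without mitochondrial features, and 12.4% in each case with 1 library left out (12.38% to 12.44%). The normalisation nearly fixes this last range, so it is no measure of spread between libraries. Mitochondrial features held 14.03% per kb and 5.69% to 6.03% with 1 library left out. The mean r between libraries was 0.963, 0.991 over all features and 0.955 to 0.976 with 1 library left out, highest without library 2.

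Of 54 lists, 3 changed their count by over 1.5 times at a level of 5, where the distal tubule list had 4 detected, the intercalated cell list 2 and the muscle list 2. At a level of 20 the proximal metabolism list had 2, the endothelial list 1 and the leukocyte, erythroid and muscle lists 0. With 10 required in each library the leukocyte list had 1 and the erythroid and muscle lists 0. The erythroid count of 1 ranged from 0 to 1 with 1 library left out, and was 0 without library 1 or library 2. Ranks of 33 named features moved for 30 of them per kb, where 16 stayed within the first 30. No paired analysis was possible because only 1 group was used. Total depth is unknown. By the read-back, features without a read had values of up to 0.556, 0.222 and 0.667 in libraries 1, 2 and 3. No counting error was computed.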

Other observations

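ACHN control cells also made RNA of several secreted factors and immune genes. Of the cytokine and growth factor list 31 of 45 were detected (68.9%, near the 61.8% of all protein-coding genes). SPP1 was highest at 6547 ± 1609.7 per kb. GDF15, a stress-induced member of the TGF-beta family, had 2954, 1512 and 3841, EDN2, an endothelin, 1857, 1179.9 and 2090, and TGFA, a ligand of EGFR, 1441, 2082 and 1548. HGF, the ligand of MET, and the chemokines CXCL10, CXCL12 and CCL5 were listed at 0. Of the antigen presentation list 15 of 21 were detected (71.4%). B2M, the light chain of class I molecules, had 2135, 2617 and 2946 and HLA-C 2461, 2369.6 and 2581, while the class II genes HLA-DRA and HLA-DQA1 were listed at 0 and their chaperone CD74 averaged 770.3 ± 54.4.

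Drug and lipid transporters of the ABC and solute carrier families had 20 of 26 detected (76.9%, against 61.8% of all protein-coding genes). ABCC3 had 6059, 3030.4 and 3379 and ABCC1 4189, 3012 and 3969.6, both exporters of conjugates, while ABCB1, the multidrug pump, averaged 462 ± 105 and ABCG2 25.9 ± 23.3. All 11 HOXA genes were detected, as were 8 of 10 HOXB, 4 of 8 HOXC and 6 of 9 HOXD genes, against the same 61.8%. PRAME, a cancer-testis antigen, had 617, 541 and 593, while all 23 genes of the MAGEA, MAGEB and MAGEC subfamilies had no read. Other MAGE genes were not counted here. Of nuclear noncoding RNAs 9 of 13 were detected. MALAT1 had 10278, 15456 and 15157 and GAS5, the host of several small nucleolar RNAs, 2493, 1542 and 3343, with library 2 lowest.

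The table names 27 features by dates, a known effect of spreadsheet software on gene symbols such as those of septins, and these were given no gene name here.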
